A study of Mus musculus with 10 samples.

Results

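Mammary gland transcripts of lactating QSi5 mice were described from 5 arrays, 1 for each of 5 mice, out of the 10 arrays of the series. The arrays were chosen by their labels, which give the strain as QSi5 and the stage as lactation day 9, and the other 5 arrays, from CBA mice, were not compared here. QSi5 is an inbred strain bred for large litters born at short intervals, and the study set it against CBA to look for genes that go with its maternal performance. According to the series record, the mice were in their first lactation, the pups were weaned by force when it had lasted 9 days, and the fourth inguinal gland was collected. All 5 mice share this strain and this treatment, the study's methods give an age at mating but none at collection, and the time between weaning and tissue collection is not stated in the sources used here.

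Mice are numbered by the replicate number in their labels. The glands of mice 1 and 2 were hybridised to the MOE430A 2.0 chip and those of mice 3, 4 and 5 to the larger MOE430 2.0 chip, by the platform of their sample records (the study's methods name the MOE430A 2.0 chip alone), and the authors normalized both types together on the 22690 probesets that they share. After removal of 64 controls, 22626 probesets remained, which cover 12393 genes that can be named without ambiguity. Values are log2 intensities from RMA, a method that corrects, normalizes and summarizes the probes of a probeset, and a difference of 1 is a 2-fold difference. Each gene stands by its brightest probeset unless another is named. A level is a signal that also depends on how well the probes bind, so the order of genes below is an order of signal and not of transcript copies. Spread is given as the SD between the 5 mice, over the 11081 probesets (49.0%, 7200 genes) whose mean exceeded 20 on the unlogged scale, or 4.32 on the log2 scale. The arrays had medians of 4.22 to 4.30, and across probesets, which are not independent, pairs of arrays correlated with r between 0.978 and 0.992, the pairs with mouse 4 having the lowest median, 0.982. The control probesets for the ends of Actb gave 3′ minus 5′ values of 2.00, 2.56, 1.98, 2.09 and 2.24 in mice 1 to 5, and those for Gapdh 1.58, 1.84, 1.56, 1.52 and 1.73. Mouse 2 had the largest 3′ excess on both. With 5 mice of 1 group there was no contrast to test other than that of the chip types, and the number of arrays limits the precision of every SD.

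In lactation the alveoli of the gland are lined by luminal secretory cells, which make milk under the control of prolactin and its transcription factor Stat5. Myoepithelial cells around the alveoli contract to eject the milk, and fat cells, fibroblasts, vessels and immune cells fill the space between. Casein micelles carry most of the protein of mouse milk, whey proteins stay in solution, and lipid droplets leave the cell wrapped in membrane as milk fat globules.

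The brightest genes of QSi5 glands were those of milk proteins. Wap, the main whey protein of mouse milk, had 14.17, 14.16, 14.21, 14.25 and 14.21 in mice 1 to 5, and its mean of 14.20 ± 0.04 (SD, n = 5) was the highest of all genes. Csn3, the kappa casein that coats the micelle, followed with 14.06, 14.08, 14.03, 14.02 and 14.06. Csn2, beta casein, had 13.92, 13.97, 13.78, 13.76 and 13.84. For both caseins the 5 mice lay close together, with SDs of 0.02 and 0.09.

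All 5 caseins stood among the brightest 7 genes, where they were joined by Wap and by Glycam1, a mucin-like glycoprotein of milk, with a mean of 13.81. The casein genes lie together on chromosome 5, between positions 87666208 and 87932550 of the GRCm38.p6 assembly. The promoters of Csn1s1 and Csn2 are shown because their letters can be set beside their levels and the match lies before the start. They come from the RefSeq table, and both are the 250 bases before the start of the gene, read 5′ to 3′, with matches to TTCNNNGAA, the letters of the Stat5 type of site, in capitals. Csn1s1 is at chr5:87665958-87666207 on the plus strand and Csn2 at chr5:87699426-87699675 on the minus strand.
Csn1s1: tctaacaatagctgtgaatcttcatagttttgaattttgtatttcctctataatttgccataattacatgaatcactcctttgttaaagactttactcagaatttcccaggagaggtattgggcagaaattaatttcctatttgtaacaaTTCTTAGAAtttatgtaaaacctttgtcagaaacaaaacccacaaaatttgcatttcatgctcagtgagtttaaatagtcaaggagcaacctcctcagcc
Csn2: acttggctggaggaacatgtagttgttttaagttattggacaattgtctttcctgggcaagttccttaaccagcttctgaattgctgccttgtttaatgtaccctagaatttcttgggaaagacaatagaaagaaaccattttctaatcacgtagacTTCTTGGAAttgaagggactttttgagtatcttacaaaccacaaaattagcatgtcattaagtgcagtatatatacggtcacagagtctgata
The capitals start 100 bases before the start of Csn1s1 and 93 bases before that of Csn2. Csn1s2a, the other casein with an entry, held the same kind of match within its first bases after the start. The letters, searched on both strands, are in 8.3% of all 32851 promoters of 300 bases. A match describes the letters only.

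Beside the caseins, Lalba, the alpha-lactalbumin that turns a galactosyltransferase into lactose synthase, had 13.63, 13.42, 13.77, 13.50 and 13.73. Mice 2 and 4 were lowest for it. Wfdc18, a secreted protease inhibitor, averaged 13.57 and Lao1, an L-amino acid oxidase of milk that makes hydrogen peroxide, 13.56. Tpt1, which encodes the translationally controlled tumour protein, averaged 13.21 and followed the milk genes. The 25 brightest genes also held Rpl41 and the ribosomal proteins Rps29, Rps14, Rps28, Rpl37a, Rps24 and Rps7, the elongation factor Eef1a1, and Uqcrb, a subunit of the respiratory chain. These 25 genes gave 18.1% of the signal summed over all named genes on the unlogged scale, the first 10 gave 10.9% and the first 100 gave 34.1%. Only 12 genes averaged above 13 and 178 above 10. When each gene stood by the mean of its probesets rather than by the brightest, 16 of the 25 remained among the first 25.

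**Figure D1:**
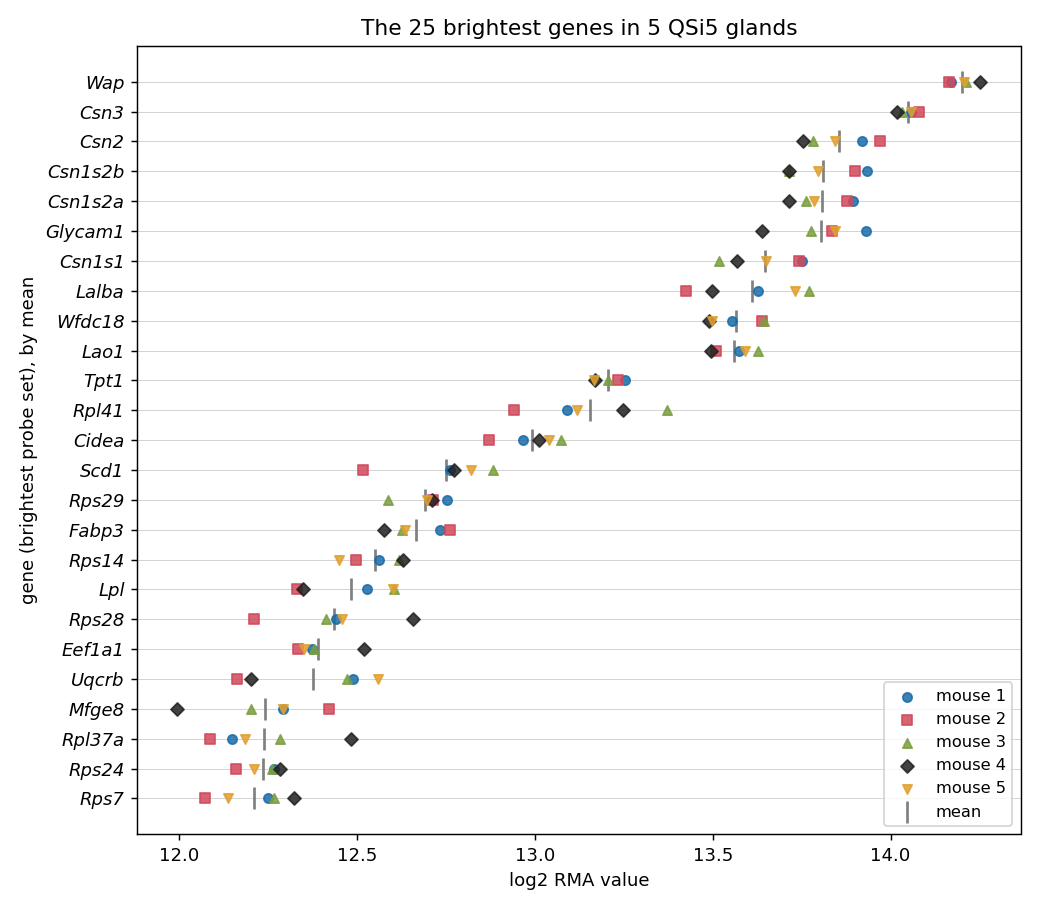
The 25 genes with the highest mean log2 RMA value in the 5 QSi5 glands, each by its brightest probeset. Each symbol is 1 mouse on the log2 scale of the horizontal axis and the grey bar is the mean, and the 5 mice of Wap and Csn3 lie within 0.09 and 0.06 of each other.

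Milk fat genes formed the next group. Cidea, a protein of lipid droplets, had 12.97, 12.87, 13.07, 13.01 and 13.04, and Scd1, the desaturase that makes oleate, averaged 12.75 ± 0.14 (SD, n = 5). Fabp3, which carries fatty acids in the cytosol, averaged 12.67, Lpl, the lipase that frees fatty acids from plasma lipoproteins, 12.48, and Mfge8, lactadherin of the globule membrane, 12.24. Of 10 genes of the milk fat globule membrane, 7 were among the 100 brightest and all 10 among the brightest 1240 of the 12393 genes, called the top class below. They had a median percentile of 99.5 and a median SD of 0.120, against 0.189 over all kept genes. Fatty acid synthesis genes, 17 in number, had a median percentile of 98.0 with 15 in the top class, and the 17 genes of triglyceride assembly and fatty acid uptake one of 92.3 with 9.

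The machinery behind secretion was bright as well. Cytosolic ribosomal proteins had a median percentile of 99.5, with 25 of 36 measured among the 100 brightest genes. Respiratory chain subunits had one of 97.9, with 41 of 44 in the top class, and the translocon and vesicle coat genes, which move proteins into and out of the endoplasmic reticulum, one of 94.9. Xbp1, the transcription factor that widens the secretory apparatus, averaged 11.72 with an SD of 0.07. Of the prolactin and Stat5 list, Elf5, the transcription factor of alveolar cells, averaged 10.87, and 14 of 16 measured members passed the minimum. For lactose synthesis the list beside Lalba was of middling signal, with a median percentile of 82.5. B4galt1, the galactosyltransferase partner of Lalba, averaged 8.57 and Slc2a1, the main glucose transporter of the gland, had 9.07, 8.12, 8.36, 8.16 and 8.85. Cholesterol synthesis genes had a median percentile of 76.7 and no member among the 100 brightest.

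Markers of the cells that the gland holds had the following levels. Of 16 luminal markers, 12 passed the minimum, with Epcam at 8.26 and Krt8 at 8.10. Of 14 myoepithelial markers, 10 passed, led by Acta2, smooth muscle actin, at 10.83. Of 13 adipocyte markers 11 passed, led by Lpl and by Car3, a carbonic anhydrase of fat cells, at 10.75. Of 9 brown fat markers 4 passed, and the list divided sharply, since Cidea stood 13th among all genes while Ucp1, the uncoupling protein that defines brown fat, averaged 3.01. Of 16 endothelial markers 6 passed, and of 20 fibroblast and matrix markers 17 did, with Timp2 at 9.99 and Col3a1 at 9.12. Among tissues that could be taken along, 6 of 21 skeletal muscle markers, 3 of 22 skin markers and none of 9 kallikrein and salivary genes passed. Tpm2, the brightest muscle list member at 9.44, is a tropomyosin that myoepithelial cells also make, whereas Acta1, the actin of skeletal muscle, averaged 2.91 and Krt10 of the skin 4.02. Ucp1, Acta1 and Krt10 were named after their values were seen.

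Between the 5 mice most genes differed little. The median SD over the kept probesets was 0.194, a 1.14-fold difference, and the quartiles were 0.137 and 0.271. An SD above 0.5 was found for 400 probesets (3.61%) and for 203 genes (2.82%), and an SD above 1 for 34 probesets. The median distance between the highest and the lowest mouse was 0.48, or 1.40-fold, and 840 probesets (7.58%) spanned 1 or more. The spread was flat over most of the range, with a median SD of 0.189 for means from 4.32 to 5 and 0.213 from 8 to 9. The median then narrowed to 0.177 from 10 to 11, where 8.57% of probesets still had an SD above 0.5, to 0.129 from 12 to 13 and 0.0947 above 13. The highest value on any array was 14.25, and a small spread of the RNA cannot be told apart from a limit of the scale at its top. The study's methods name quantile normalization, which gives the arrays a common distribution of probe intensities. A small spread at the top cannot be told apart from its effect either.

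**Figure D2:**
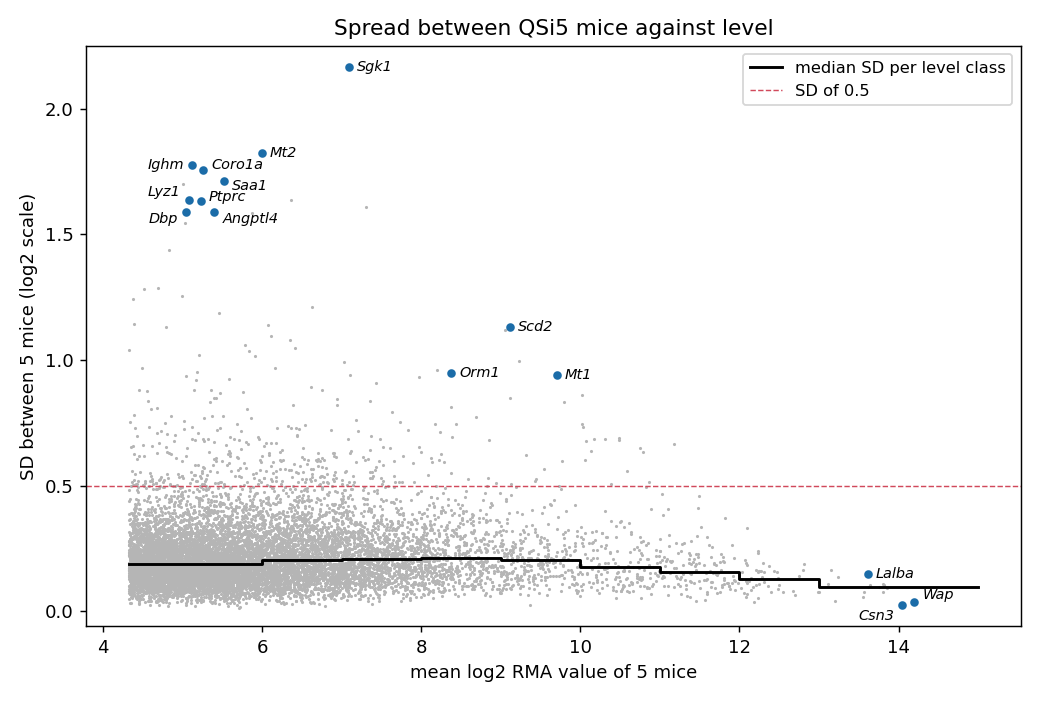
SD between the 5 QSi5 mice (vertical axis, log2 scale) against the mean log2 RMA value (horizontal axis) for 11081 probesets, 1 grey point each. The black steps are the median SD of each level class, which fall to 0.0947 above a mean of 13, the dashed line is an SD of 0.5, and the named points include Sgk1 with the largest SD, 2.17.

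The steadiest bright genes were mostly those of milk and of translation, at levels where the median SD of all probesets narrowed with signal. Among genes with a mean above 10, Csn3 had the smallest SD (0.0239), then Wap (0.0357), Tpt1 (0.0388) and Rpl4 (0.0415). Rps24, the elongation factor Eef2, the ATP synthase subunit Atp5h, Lao1, Rps29 and Itm2b, a membrane protein, completed the 10 steadiest, up to an SD of 0.0681. Of 13 kept genes that are commonly used as references for normalization, none had an SD above 0.5, which only 2.82% of all kept genes had. Their median SD was 0.217, against 0.189 over all kept genes. Eef2 (0.05), Eef1a1 (0.07) and Rplp0 (0.10) varied least, Hprt (0.22), B2m (0.22), Gusb (0.24), Tubb5 (0.25), Polr2a (0.25) and Actb (0.26) varied more, and Ywhaz had 0.33. Sdha, Pgk1 and Tfrc had SDs of 0.13, 0.13 and 0.15. Tbp averaged 4.21, below the minimum. Actb ran from 11.30 in mouse 2 to 12.01 in mouse 4, a 1.64-fold range, while Eef2 ran from 10.71 to 10.84.

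Mice 1, 2 and 4 held the larger shares of the variation. Mice 1 and 2 are the only MOE430A 2.0 arrays, so a chip offset and a trait of these mice cannot be told apart in their shares. The top 5% by SD held 554 probesets, with an SD of 0.4509 just inside and just outside the edge, and each was put under the mouse farthest from the median of the 5. Mouse 2 took 132 as low and 81 as high, mouse 4 took 128 as high and 72 as low, and mouse 1 took 84 as high and 18 as low. Of the 554 probesets, 28 passed the minimum only through the value of mouse 4, against 2 to 8 for each other mouse. Among those 28 were Cd53, Fcer2a, Fscn1 and Ms4a6b. Mouse 3 took 26 as low and 2 as high, and mouse 5 only 8 as high and 3 as low. Over all kept probesets the squared deviations from the mean divided with 28.9% in mouse 2, 26.6% in mouse 4, 21.7% in mouse 1, 11.4% in mouse 5 and 11.3% in mouse 3. A single mouse stood apart, by a gap to its nearest neighbour above 0.71 of the whole range, for 884 probesets (7.98%) and 592 genes (8.22%). Chance passes this level in about 5% of groups, so many of the 884 may be chance. Mouse 2 was the one apart and low for 279 of the 884 probesets, mouse 4 apart and high for 139 and mouse 2 apart and high for 128. Of all kept probesets, 128 passed the minimum only through mouse 4 and 111 only through mouse 2. The most frequent pattern had mice 1, 3 and 5 above the mean and mice 2 and 4 not, for 15.2% of the top 5% and 10.9% of all kept probesets. Mouse 4 was the 1 mouse above the mean for 13.2% of the top 5% and for 1.79% of all kept probesets. Mice 1 and 2, which share a chip type, were the mice above the mean for 10.5% of the top 5% and for 5.92% of all kept.

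**Figure D3:**
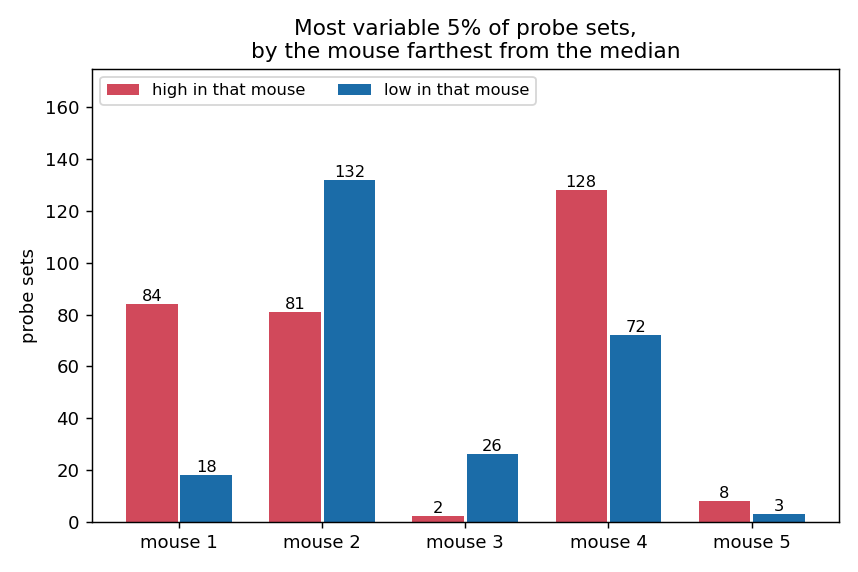
Number of probesets (vertical axis) among the 554 with the largest SD, by the mouse whose value is farthest from the median of the 5 and by direction. Mouse 2 takes 132 low and 81 high probesets and mouse 4 takes 128 high and 72 low, against 8 high and 3 low for mouse 5.

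The chip type was the technical difference between the arrays that their sample records name. The larger 3′ excess of mouse 2 on the control probesets is another difference, which the comparison of chip types does not address. In limma (two-sided, Benjamini-Hochberg over 11081 probesets), 0 probesets (0%) differed between the 3 MOE430 2.0 and the 2 MOE430A 2.0 arrays at an adjusted p under 0.05, and 715 had an unadjusted p under 0.05. Without mouse 1 there were 7 calls, but mouse 2 was then the 1 array of its chip type and was assumed to vary like the other 3. The 18S control probesets also had their highest values in mice 1 and 2, with 6.55, 6.71, 6.13, 6.17 and 5.9999 for the 3′ control and 6.08, 6.45, 4.62, 5.45 and 5.48 for the 5′ control. In simulated data with this design, 33 of 50 changes of 1 on the log2 scale and 2 of 50 changes of 0.5 were recovered, so that small chip differences were not detectable. Far1, a reductase that makes fatty alcohols, had 7.39 and 7.32 in mice 1 and 2 against 6.05, 5.96 and 5.997 in mice 3, 4 and 5 on 1 of its probesets. This was the 1 probeset with a clear gap of over 1 between the chip types. Of the 3 other kept probesets of Far1, 1 also had mice 1 and 2 highest, by less, and 2 did not.

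Genes of immune cells set mouse 4 apart. Ighm, the heavy chain of IgM, had 4.49, 4.16, 4.38, 8.29 and 4.26 on the most variable of its probesets. Coro1a, an actin-binding protein of leukocytes, had 4.56, 4.46, 4.23, 8.39 and 4.66, and Ptprc, the leukocyte antigen CD45, had 4.83, 4.13, 4.29, 8.10 and 4.78. In each case mouse 4 was over 3 units above the other 4 mice, which lay within 1 unit. Cd52, a surface peptide of lymphocytes, had 5.46, 4.85, 5.10, 8.67 and 5.25. Lyz2, a lysozyme of myeloid cells, had 6.37, 5.73, 6.40, 8.72 and 5.88, and Lyz1, its neighbour on chromosome 10, had 6.94, 5.99, 7.10, 10.07 and 6.40 on its brightest probeset. Their probesets may bind both transcripts, so the lysozymes count as 1 observation. Fewer cells of a type and less RNA per cell cannot be told apart in such bulk samples.

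The same mouse was highest for Cd53, Ccl5, Thy1, Fcer2a, Ms4a6b, Arhgdib, Fscn1 and the T cell receptor segment Trav9d-3, by 1.74 to 2.29 over the nearest mouse. Their names span B cells (Fcer2a, the low-affinity IgE receptor), T cells (Thy1, Trav9d-3) and leukocytes in general (Cd53, a tetraspanin). MHC class II genes, which present peptides to helper T cells, were highest in mouse 4 for 7 of 7 kept members, where 19.5% of all kept genes were, and their median deviation from the 5-mouse mean was 1.20 there and between -0.46 and -0.04 in the others. H2-Aa had 8.16, 7.24, 8.03, 9.79 and 7.75, and Cd74, the invariant chain, 7.70, 7.26, 7.42, 9.05 and 7.26. Mouse 4 was the highest and mouse 2 the lowest or level with the lowest for both.

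Many lymphocyte markers reached a clear signal in mouse 4 alone and so averaged below the minimum. Of 18 measured T and NK cell markers, 14 were highest in mouse 4, as were 8 of 13 B and plasma cell markers and 9 of 9 class II genes, against 22.3% of all 12393 genes. Ltb, a lymphotoxin subunit, had 3.14, 2.97, 3.19, 7.07 and 3.06, and Ms4a1, the B cell antigen CD20, had 3.16, 3.46, 3.07, 6.39 and 3.30. Cd79b of the B cell receptor had 6.22 in mouse 4 and at most 3.94 in the others, and Cd3d of the T cell receptor 6.09 and at most 3.89. These 4 genes were named after their values were seen. Not every immune marker took part. Jchain, which joins antibodies for secretion into milk, had 9.18, 8.44, 9.42, 8.38 and 8.55, the lowest value being that of mouse 4, and the brightest probeset of Ighm ran only from 7.87 to 8.28. Of 23 myeloid markers 8 were highest in mouse 4, and S100a8 and Itgam, named after their values were seen, stayed at 3.57 or less in all mice.

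Other lists also had many of their highest values in mouse 4. Of 10 kept cell division genes, 8 were highest in mouse 4, with a median deviation of 0.41 there and of -0.27 in mouse 2. Pcna, the sliding clamp of replication, had 6.92, 6.72, 6.98, 7.40 and 7.17, and Cdc20 of the mitotic exit had 4.65, 4.52, 4.52, 5.62 and 4.44. Of 33 ribosomal proteins, 23 were highest in mouse 4 and 22 lowest in mouse 2, at medians of 0.15 and -0.18. Of all kept genes 19.5% were highest in mouse 4 and 31.1% lowest in mouse 2. Endothelial markers were highest in mouse 4 for 4 of 6 kept members (median 0.20) and interferon-induced genes for 7 of 17 (median 0.17), against 19.5% of all kept genes. Over all measured genes, 22.3% were highest in mouse 4. There the counts were 19 of 29 cell division genes (median 0.22), 9 of 16 endothelial markers (0.14) and 8 of 26 interferon-induced genes (0.06). Myoepithelial genes ran the other way, with 7 of 10 lowest in mouse 4 (median -0.70) and 10 of 10 highest in mouse 2 (median 0.59), against 22.0% and 21.2% of all kept genes. Over all 14 measured myoepithelial markers the medians were -0.28 in mouse 4 and 0.45 in mouse 2, with 7 lowest and 3 highest in mouse 4 and 10 highest in mouse 2. Adipocyte markers were lowest in mouse 4 for 6 of 11 kept members, at a median of -0.23. Acta2 had 10.71, 11.46, 10.97, 10.09 and 10.91, a 2.57-fold range, and Myh11, the heavy chain of smooth muscle myosin, had 6.43, 6.64, 6.09, 4.90 and 5.73. Actg2 had 6.21, 6.93, 6.12, 5.36 and 6.27. Luminal markers differed less, with medians from -0.10 in mouse 4 to 0.10 in mouse 2. The caseins were lowest in mouse 4 for 4 of 5 genes, with a median of -0.09, which became 0.01 after a second quantile normalization. Mouse 3 was nearly as low, at a median of -0.07, and mouse 5 was at -0.01. Mice 1 and 2, which share a chip type, both had a median of 0.09 and held the highest value of every casein. For the caseins, chip type and mouse cannot be told apart. How far lymphoid cells taken along with the gland account for the values of mouse 4 was not tested.

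Single genes known from fasting, the body clock and the response to glucocorticoids had their highest value in mouse 2. Mt2, a metallothionein that binds zinc, had 5.42, 9.18, 4.81, 4.83 and 5.73, a 20.7-fold range. Angptl4, an inhibitor of Lpl, had 4.74, 8.21, 4.33, 4.67 and 5.04. Dbp, a transcription factor driven by the clock, had 4.72, 7.85, 4.30, 4.28 and 4.06. Mouse 2 was over 3 units above every other mouse for each. Pdk4, the kinase that keeps pyruvate from oxidation, had 4.17, 6.97, 4.32, 3.82 and 4.16, and Fkbp5, a co-chaperone of the glucocorticoid receptor, had 5.27, 7.68, 5.35, 5.43 and 5.46. Pdk4, and Lrg1 below, passed the minimum only through the value of mouse 2. Mt1, which lies beside Mt2 on chromosome 8, had 9.72, 11.28, 9.28, 8.83 and 9.41 on a probeset whose suffix marks probes shared with other transcripts.

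In a list of fatty acid oxidation and fasting-response genes, which was added after the values were seen, 15 of 23 kept members were highest in mouse 2, with a median of 0.25 against -0.03 over all genes, of which 21.2% were highest there. At an intensity minimum of 100 the median of the list was 0.0606. Acot1, a thioesterase of fatty acyl-CoA, had 6.10, 7.86, 5.88, 6.05 and 6.07, and Acadl, the long-chain acyl-CoA dehydrogenase, had 5.06, 6.88, 4.90, 5.72 and 4.79. Ucp3, the mitochondrial uncoupling protein of muscle, had 5.56, 6.99, 5.50, 5.37 and 5.56. Mouse 2 was highest for each, by 1.75 for Acot1. Of 12 circadian clock genes, 9 were highest in mouse 2, at a median of 0.40. This median was 0.17 over all 17 measured genes, 0.11 after blocking on the chip and 0.0522 at a minimum of 100. Blocking sets mouse 2 against mouse 1 alone, the other array of its chip type, so it cannot tell the chip from mouse 1. Nr1d2, the nuclear receptor Rev-erb beta, had 6.16, 7.56, 6.67, 6.09 and 5.66. The time of day of tissue collection is not given in the sources used here. Of 16 glucocorticoid-induced genes 7 were highest in mouse 2 and 3 were lowest there, at a median of 0.17. Of 23 acute phase and involution genes 12 were highest there, at a median of 0.31, which was 0.0814 after blocking on the chip. Cd14, the co-receptor for endotoxin, had 7.40, 9.11, 7.65, 7.51 and 7.50, Lrg1, an acute phase glycoprotein, had 4.35, 6.71, 4.01, 4.91 and 3.99, and Lcn2, the iron-trapping lipocalin, had 11.54, 12.24, 11.41, 11.13 and 11.14. Mouse 2 was highest for all 3, by 1.46 for Cd14 and by 0.70 for Lcn2. Car6, a carbonic anhydrase of saliva and milk, had 4.76, 6.88, 4.73, 4.68 and 4.82.

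Genes of lipid synthesis were low in the same mouse. Scd2, a desaturase that lies near Scd1 on chromosome 19, had 9.84, 7.11, 9.67, 9.41 and 9.54, so that mouse 2 was 2.30 below the nearest mouse, whereas Scd1 had 12.76, 12.52, 12.88, 12.77 and 12.82. Of 20 cholesterol genes 18 were lowest in mouse 2, where 31.1% of all kept genes were lowest. The median of the list was -0.56 in mouse 2 and between 0.01 and 0.22 in the others, and 5 of the 20 had an SD above 0.5. Sqle, squalene epoxidase, had 7.35, 5.49, 7.50, 7.15 and 7.21. Idi1, which interconverts the isoprene units of the pathway, had 7.13, 5.29, 6.53, 6.45 and 6.81. Nsdhl, a later step on the way to cholesterol, had 7.93, 6.41, 7.71, 7.05 and 7.54. Hsd17b7 was the member highest in mouse 2, at 5.38 against 4.82 in mouse 1, and was named after its values were seen.

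The promoters of 3 low members are shown because 17 of the 18 list genes with an entry hold the letters CCAAT, on either strand, within 300 bases, which 41.1% of all genes with an entry do. Capitals mark CCAAT or its complement ATTGG and, in Hmgcs1 alone among the list, TCACNCCAC, the letters of a sterol element, which 1.24% of all promoters hold. Each is the 250 bases before the gene start on GRCm38.p6, read 5′ to 3′. Hmgcs1, the synthase at the head of the pathway, is at chr13:119690101-119690350 on the plus strand, Idi1 at chr13:8885356-8885605 on the plus strand, and Cyp51, lanosterol demethylase, at chr5:4104698-4104947 on the minus strand. Hmgcs1 and Cyp51 were chosen after their values were seen.
Hmgcs1: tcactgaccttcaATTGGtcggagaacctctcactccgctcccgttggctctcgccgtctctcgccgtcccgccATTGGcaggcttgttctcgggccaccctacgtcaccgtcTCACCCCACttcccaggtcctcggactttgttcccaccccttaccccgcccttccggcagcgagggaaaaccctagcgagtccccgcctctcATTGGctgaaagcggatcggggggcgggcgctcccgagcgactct
Idi1: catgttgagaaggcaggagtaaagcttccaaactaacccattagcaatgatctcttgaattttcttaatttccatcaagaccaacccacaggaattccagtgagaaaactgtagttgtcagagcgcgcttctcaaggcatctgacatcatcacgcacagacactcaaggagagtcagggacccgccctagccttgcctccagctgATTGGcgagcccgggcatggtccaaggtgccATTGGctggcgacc
Cyp51: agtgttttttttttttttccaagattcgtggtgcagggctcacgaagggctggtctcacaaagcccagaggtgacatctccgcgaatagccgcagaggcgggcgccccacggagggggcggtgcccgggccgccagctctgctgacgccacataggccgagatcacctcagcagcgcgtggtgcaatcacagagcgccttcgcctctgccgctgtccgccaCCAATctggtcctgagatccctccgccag
The sterol element letters start 137 bases before the start of Hmgcs1. Its values were 7.46, 5.89, 6.77, 6.48 and 6.93, and those of Cyp51 were 6.48, 4.95, 5.97, 6.12 and 6.34. Both were lowest in mouse 2 and highest in mouse 1. The letters were not tested as sites, and CCAAT was also in 13 of 16 circadian clock genes, whose members were mostly highest in mouse 2.

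Other lists of the secreting cell were low in mouse 2 by less. Of 17 fatty acid synthesis genes 12 were lowest there (median -0.26), of 43 respiratory chain subunits 36 (median -0.26), and of 30 translocon and vesicle coat genes 21 (median -0.32). Of all kept genes 31.1% were lowest in mouse 2, at a median of -0.03. In the last list 17 of 30 genes were highest in mouse 5, where 19.3% of all kept genes were. That list was also low in mouse 4, with 9 of 30 lowest (median -0.20), against 22.0% of all kept genes. Cycs, cytochrome c, had 10.29, 9.17, 9.89, 9.33 and 10.09, and Ssr4, a translocon subunit, had 12.27, 11.79, 12.25, 12.08 and 12.04. Manf, a chaperone-related factor of the endoplasmic reticulum, had 8.20, 6.47, 7.60, 7.18 and 7.96. Mouse 2 was lowest for these 3, and mouse 4 was next for Cycs and Manf. The list that holds Manf, of endoplasmic reticulum chaperones and the unfolded protein response, was lower in mouse 4 than in mouse 2. Its median was -0.21 in mouse 4, with 11 of 26 genes lowest, and -0.16 in mouse 2, with 9 of 26. Single genes low in mouse 2 included Crabp2, a carrier of retinoic acid, with 5.81, 3.94, 5.75, 5.52 and 6.08, and Gjb2, the gap junction protein connexin 26, with 8.63, 7.01, 8.63, 8.17 and 8.71. Adamts5, a protease of the matrix, had 9.00, 6.65, 8.20, 7.45 and 8.55. Atp2b2, the calcium pump that loads milk with calcium, had 9.29, 7.98, 9.07, 8.67 and 9.18. Mouse 2 also had the largest 3′ excess on the control probesets, and its part in these values was not tested.

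**Figure D4:**
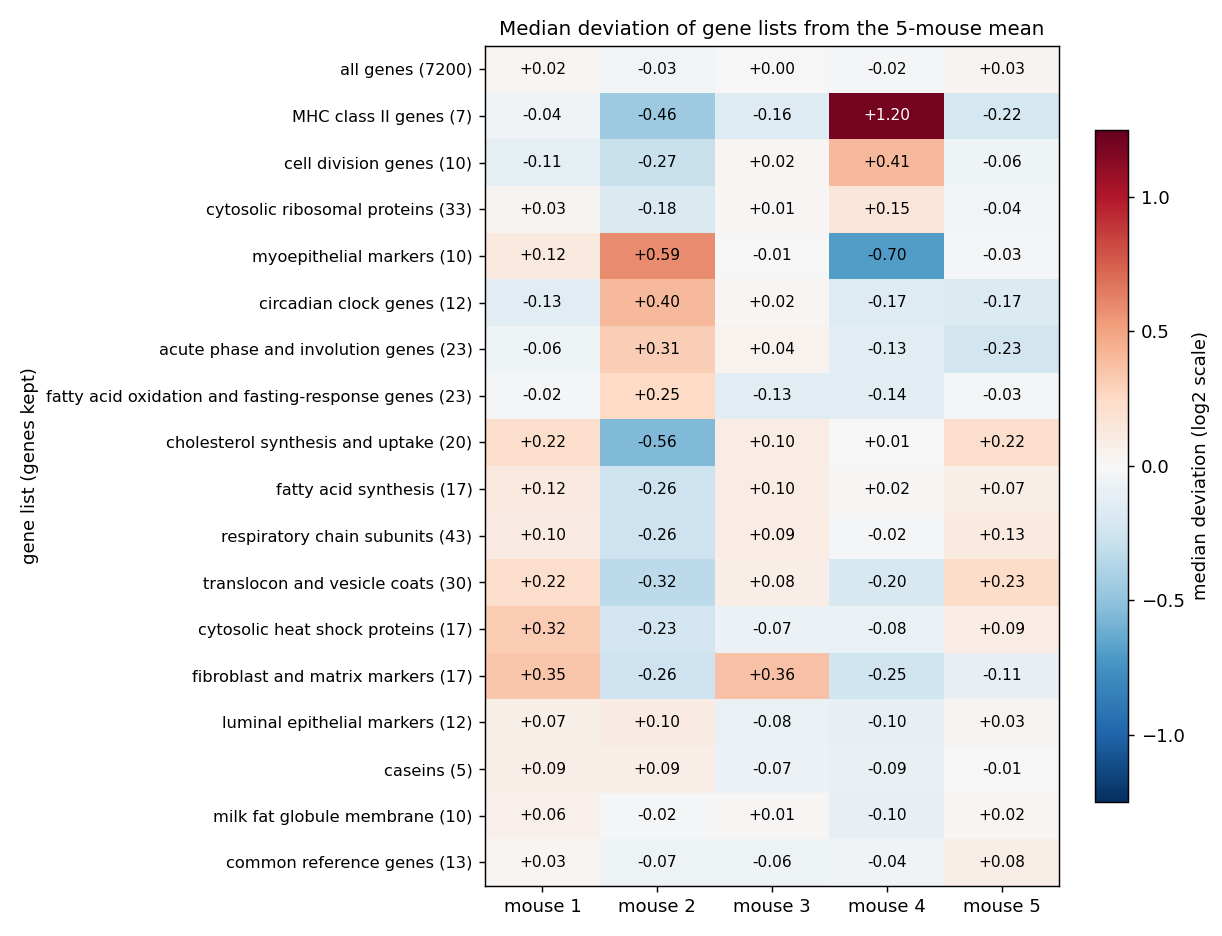
Median deviation from the 5-mouse mean (log2 scale, colour and number) of 17 gene lists and of all kept genes in each of the 5 mice, with the number of genes kept in brackets. MHC class II genes reach 1.20 in mouse 4 and cholesterol genes -0.56 in mouse 2, myoepithelial markers are highest in mouse 2 and lowest in mouse 4, and all genes together stay within 0.03 of 0.

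Some acute phase genes had their highest value in mouse 1. Of the 23 kept members of the list 4 did (Saa1, Saa3, Orm1 and the transcription factor Cebpb), against 25.6% of all kept genes, and the list median in mouse 1 was -0.06. Orm1, orosomucoid, a plasma carrier protein, had 9.997, 8.03, 8.43, 7.79 and 7.66, and mouse 1 was 1.57 above the nearest mouse. Saa1, serum amyloid A, had 7.80, 6.30, 5.77, 3.44 and 4.28, and its other probeset had 7.32, 5.72, 4.80, 3.58 and 3.73. Saa3, made in the gland itself, had 6.31, 5.58, 5.20, 4.09 and 4.50. For Saa1 and Saa3 the mice were spread out and not divided into groups, with mouse 1 highest and mouse 4 lowest for both. Orm2 had 6.85, 6.38, 5.49, 4.27 and 4.26, with mice 4 and 5 level. Heat shock proteins were highest in mouse 1 for 11 of 17 genes, at a median of 0.32, where all kept genes had a median of 0.02. Hsph1, a large chaperone of the Hsp110 family, had 6.11, 4.30, 5.06, 5.20 and 5.66, and Hsp90aa1 had 9.16, 8.17, 8.32, 8.30 and 8.67. Dnajb9, a co-chaperone of the endoplasmic reticulum, had 7.69, 6.56, 6.43, 6.08 and 6.78. Lowest in mouse 1 were Crebrf, a regulator of the Creb3 family, with 4.01, 5.59, 5.52, 5.77 and 5.06, and Ccng2, an unusual cyclin of resting cells, with 5.57, 6.83, 6.63, 6.72 and 6.78.

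Sgk1, a kinase of ion transport that glucocorticoids and serum induce, varied more than any other gene. It had 9.47, 8.55, 7.72, 4.34 and 5.36, a range of 34.9-fold with no mice close together. The order of the mice was that of Saa1 and Saa3, with mouse 4 lowest and mouse 1 highest. Of other glucocorticoid-induced genes, Fkbp5 and Mt2 had their single high value in mouse 2. Klf9, a transcription factor, had mice 1, 2 and 3 above mice 4 and 5 as Sgk1 did, but only from 7.79 to 8.17.

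**Figure D5:**
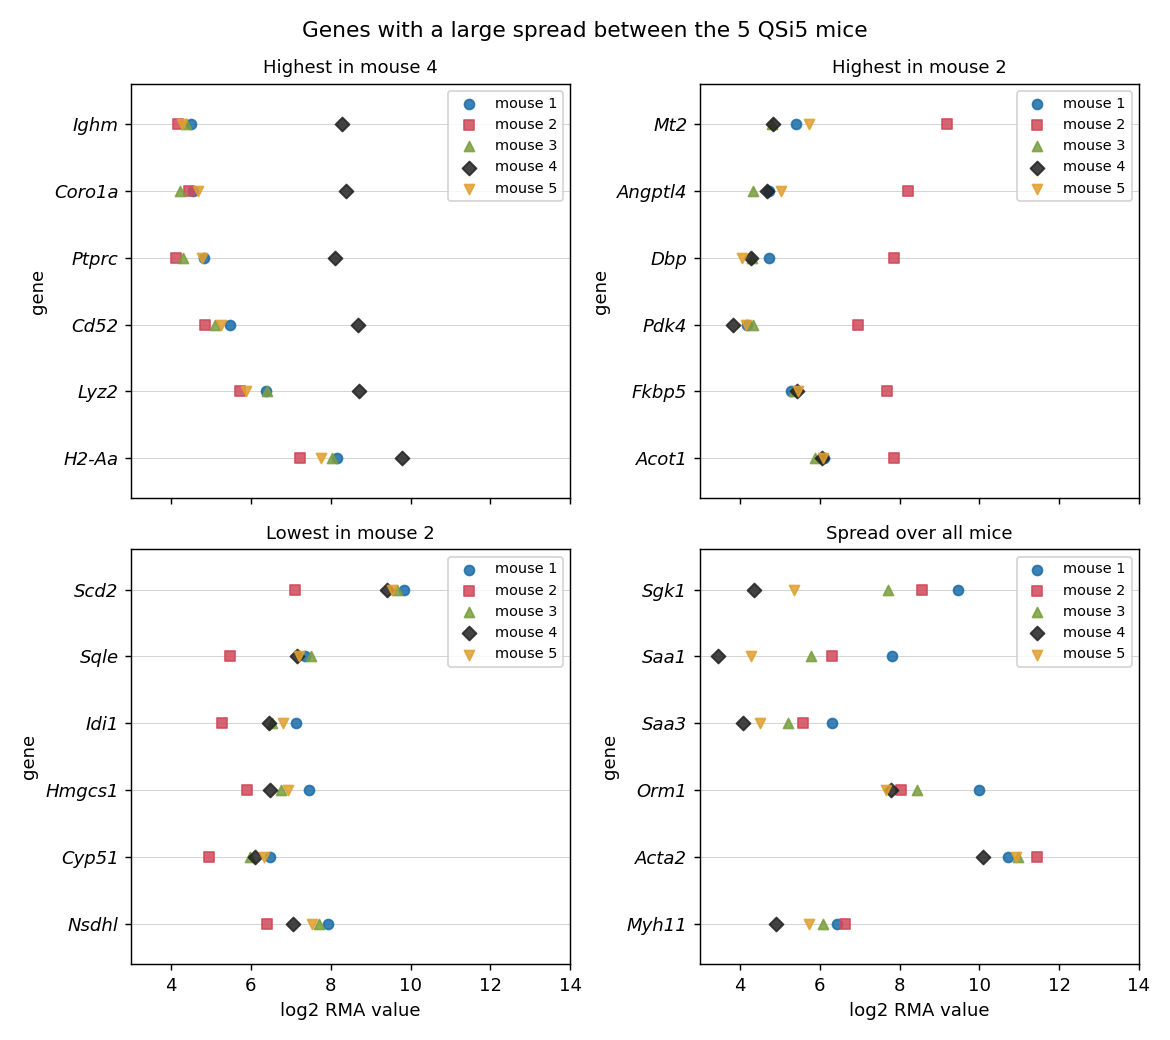
Log2 RMA values (horizontal axis) of 24 genes in the 5 QSi5 mice, 1 symbol per mouse, in 4 panels by the mouse that stands apart. Mouse 4 lies to the right for immune genes, mouse 2 to the right for Mt2 to Acot1 and to the left for Scd2 to Nsdhl, while Sgk1 and Saa1 are spread widely. Ighm stands by its most variable probeset.

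Mice 3 and 5 gave few of the variable genes. Matrix genes were highest in mouse 3 for 11 of 17 members and lowest in mouse 2 for 8 and in mouse 4 for 7, against 14.3%, 31.1% and 22.0% of all kept genes. Col3a1, type III collagen, had 10.06, 8.13, 9.84, 8.41 and 9.15, and Lum, the proteoglycan lumican, had 5.29, 3.72, 5.41, 4.28 and 4.95. Mice 1 and 3 stood above the other 3 for both. Low in mouse 3 were the RNA helicase Ddx5, with 7.76, 8.02, 6.28, 7.21 and 6.73, and Id2, an inhibitor of basic helix-loop-helix factors, with 7.00, 6.77, 5.44, 6.70 and 6.61. Of 6 kept probesets of Ddx5, 4 were lowest in mouse 3 and 2 were not. In mouse 5, Txnip, a thioredoxin-binding protein that follows glucose, had its lowest value (9.84, 10.91, 10.13, 9.46 and 8.65), as did Thrsp, a helper of fatty acid synthesis (11.92, 11.42, 11.58, 11.63 and 11.01).

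Clear gaps in level between mice of this inbred strain were few. A gap of at least 1 with both sides tight was found for 106 probesets, and 101 of them had a single mouse on one side. That mouse was mouse 4 and high for 61, mouse 2 and high for 20, and mouse 2 and low for 15. Some of these probesets passed the minimum only through the value of the high mouse, so the counts of high mice depend on the minimum. Examples are those of Cd53, Fcer2a and Ms4a6b in mouse 4 and of Pdk4 in mouse 2. Mice 2 and 4 stood together above the other 3 for 3 probesets. One of these belongs to Luc7l2, of the splicing apparatus, with 5.12, 6.19, 4.93, 6.33 and 5.14. Its brightest probeset had 6.06, 7.70, 5.81, 7.64 and 6.57, and 3 others did not have both mice highest. Sfpq, a splicing factor, had 5.30, 7.11, 5.65, 7.83 and 6.13 on its brightest probeset, whereas its other 3 kept probesets were not highest in mice 2 and 4. Malat1, a long RNA that stays in the nucleus, had 10.52, 11.59, 10.59, 11.34 and 11.10, with mice 2 and 4 highest. Malat1 was lowest in mice 1 and 3.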

How the data were processed

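RNA of 5 QSi5 glands was measured on Affymetrix mouse chips. The authors deposited log2 values from RMA, and the submitters' processing notes name affy and limma, with versions not given in the sources used here. The tables of the chip types were joined on probeset and controls were removed. Probesets with 1 gene symbol in the platform annotation were named (20380), and 691 with several symbols and 1555 with none were left unnamed. Replicates are mice by their labels, so the spread holds both biological and technical variation.

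Means, SDs, counts per mouse and list medians were computed in Python 3.11.15 with pandas 2.3.3. List medians used the brightest probeset of each kept gene. Chip types were compared with limma 3.58.1 in R 4.3.3, which was tested on simulated data. Named genes were the 25 brightest, the 25 of largest SD, the 10 steadiest above a mean of 10, reference genes, up to 4 per list (2 brightest, 2 of largest SD), up to 20 of the widest gaps and up to 6 per mouse and direction. Outside this rule, Acadl, Acot1, Acta1, Car6, Cebpb, Cd3d, Cd79b, Cyp51, Epcam, Far1, Hmgcs1, Hsd17b7, Itgam, Klf9, Krt8, Krt10, Ltb, Luc7l2, Malat1, Ms4a1, Ms4a6b, Nsdhl, S100a8, Ucp1 and Ucp3 were named after their values were seen. The members and lists were chosen with earlier results of these data known. Promoters came from the RefSeq table of GRCm38.p6. Alternatives varied the minimum, centring, normalization, probesets, chip types and mice.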

Additional observations from a re-analysis of the deposited data

Results flagged for a closer look

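The measure used here is the gap between the highest or lowest mouse and its nearest neighbour, divided by the whole range of the 5 mice. Values above 0.71 are listed, a level that chance passes in about 1 of 20 groups. Of 134 probesets and 31 lists described, 39 passed it, and most were genes named because they varied. For these genes the share has no reading of its own.

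Mouse 4 was apart and high for 21. The ratio was 0.946 for Ltb, 0.919 for Ighm on its most variable probeset, 0.907 for Cd3d, 0.897 for Trav9d-3, 0.896 for Coro1a, 0.887 for Cd79b, 0.883 for Ms4a1, 0.873 for Fcer2a, 0.853 for Ccl5, 0.846 for Cd53, 0.839 for Cd52, 0.833 for Thy1, 0.825 for Cdc20 and 0.824 for Ptprc. It was 0.776 for Lyz2, 0.767 for Eef1a1, 0.753 for Cd74, 0.746 for Arhgdib, 0.744 for Ms4a6b, 0.730 for Lyz1 and 0.749 for the median of the MHC class II genes. Eef1a1, which had a small SD, shows that the ratio says nothing of size.

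Mouse 2 was apart and high for 9. The ratio was 0.933 for Car6, 0.923 for Fkbp5, 0.888 for Acot1, 0.882 for Ucp3, 0.857 for Cd14, 0.842 for Pdk4, 0.824 for Dbp, 0.819 for Angptl4 and 0.790 for Mt2. The same mouse was apart and low for 5, with 0.844 for Scd2, 0.830 for Sqle, 0.739 for Crabp2, 0.729 for the median of fatty acid synthesis genes and 0.724 for that of cholesterol genes.

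The other 4 were single genes. Mouse 1 was apart and low for Ccng2 (0.839) and Hsd17b7 (0.736), mouse 3 for Id2 (0.748) and mouse 4 for Car3 (0.794).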

How the results depend on the processing

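Each of 437 recomputed list values was held against the SD of its list's own 5 mouse medians. Of these, 397 kept their sign and moved by less than that SD, 27 moved by more and 13 changed sign. A list that differs much between mice can thus move far and still count among the 397. With no minimum, myoepithelial markers in mouse 4 went from -0.70 to -0.28 and clock genes in mouse 2 from 0.40 to 0.17, and both count there. With no intensity minimum the kept probesets were 22626, those with an SD over 1 were 56, those with a clear gap 168 and those with 1 mouse apart 1680. With a minimum of 100 they were 3167, 4, 30 and 283, and 136 had an SD over 0.5. Without the probesets placed under mouse 4 as high, a setting chosen after seeing the data, 12 had an SD over 1. The share of the top 5% put under mouse 5 was 1.27% at a minimum of 100, 6.32% after blocking on the chip and 20.2% on the MOE430 2.0 arrays alone, where mouse 3 took 12.6% and mouse 4 took 67.2%.

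Leaving out each mouse in turn, these shares ran from 19.0% to 36.2% for mouse 1, 32.6% to 64.1% for mouse 2, 5.43% to 13.8% for mouse 3, 36.9% to 55.6% for mouse 4 and 2.17% to 6.65% for mouse 5. Probesets with an SD over 1 ran from 19, without mouse 4, to 51, those with a clear gap from 69, without mouse 4, to 151, and chip type calls from 0 to 7. The muscle markers of mouse 2 ran from 0.19 to 0.41 and the glucocorticoid-induced genes of mouse 5 from -0.27 to 0.0812.

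Of the list medians, T and NK cell markers in mouse 4 were 0.97 on the MOE430 2.0 arrays alone. Blocking on the chip, which sets mouse 2 against mouse 1 alone, gave 0.0814 for acute phase genes in mouse 2 and 0.11 for clock genes. At a minimum of 100, clock genes in mouse 2 were 0.0522, fasting-response genes 0.0606, muscle markers 0.66 (0.0327 with no minimum) and red blood cell genes in mouse 4 -0.42. Signs changed for glucocorticoid-induced genes in mouse 5 (0.0522 with the chip block, 0.0463 on the MOE430 2.0 arrays, 0.0812 without mouse 2), caseins in mouse 4 (0.0074 after a second quantile normalization) and brown fat markers in mouse 2 (0.0013 with no minimum). They also changed at a minimum of 100 for immediate early genes (0.18) and skin markers (0.18) in mouse 1. Nerve markers in mouse 3 became 0.0671 with no minimum, 0.13 without shared-probe probesets and 0.0421 with the mean of probesets, and reference genes in mouse 5 -0.0206 without shared-probe probesets. Amino acid transporters in mouse 3 became -0.0279 with the chip block and -0.0293 on the MOE430 2.0 arrays alone. With the mean of a gene's probesets, 16 of the 25 brightest genes remained. The causes were not tested. No paired analysis was possible because 1 group was described and each replicate number occurs once in it.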
